A study of Mus musculus with 6 samples.

Results

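The genes described here are the cell death machinery: caspases, Bcl2 family members, inhibitor of apoptosis (IAP) proteins and close partners such as Apaf1, Fadd, Cflar, Ripk3 and Mlkl. They were taken by gene symbol alone, and 40 of the 18193 genes measured on the arrays carried such a symbol. RNA came from cells grown from the bone marrow of C57BL/6 mice, on 6 Affymetrix arrays in 3 groups of 2. GM-MPP are multipotent progenitors, which can still form several blood lineages, expanded in stem cell cytokines together with GM-CSF, a myeloid growth factor. From those progenitors dendritic cells, which present antigen to T cells, were derived in GM-CSF (GM-DC). GM-TNFa-DC are dendritic cells derived from them in GM-CSF with the inflammatory cytokine TNFa added, so all 3 groups had GM-CSF and only 1 had TNFa. The labels number the 2 arrays of each group 1 and 2 but do not say whether each came from its own culture or animal. The p-values here therefore set differences only against the spread between these arrays, and that spread may be technical.

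Levels are log2 values, on which a difference of 1 is a 2-fold change, and the median of all probe sets lay between 4.67 and 4.77 on every array. Against GM-MPP, limma called 7 of 10 dendritic cell markers higher in each dendritic cell group and 1, Flt3, lower. The mean of every one of the 10 was above the array medians in both dendritic cell groups, although Ciita was not on their number-2 arrays, nor Zbtb46 on that of GM-DC. In GM-MPP the means of Itgax, Ciita, Ccr7, Irf4 and Zbtb46 were not above the medians. The summed level of 10 dendritic cell markers was 54.0 to 56.3 on the GM-MPP arrays, 88.5 to 104 on GM-DC and 91.5 to 107 on GM-TNFa-DC. For 6 progenitor markers the sums were 55.8 to 58.0, 27.6 to 31.9 and 27.0 to 29.9, and Cd34, Mpo and Gfi1 were not above the array medians in either dendritic cell group. Neutrophil granule markers also moved with the groups: the sum over 8 of them was 101 to 105 in GM-MPP, 63.9 to 76.6 in GM-DC and 62.4 to 64.5 in GM-TNFa-DC, and limma called 3 of the 8 lower in GM-DC and 5 in GM-TNFa-DC. For 6 macrophage markers the sums were 52.5 to 54.3, 63.5 to 65.4 and 60.6 to 61.1, and for 5 mast cell and basophil markers 36.9 to 37.8, 26.2 to 28.8 and 26.1 to 26.6. The lists with few defining markers gave 22.1 to 24.2, 17.1 to 24.0 and 19.9 to 23.4 for 3 erythroid and megakaryocyte genes, and 23.7 to 25.6, 28.9 to 29.2 and 29.5 to 29.7 for 5 lymphoid genes, where the sums followed 1 gene, Il7r (median change over the 5 of 0.17 in GM-DC and 0.30 in GM-TNFa-DC, with 1 gene called higher and Cd79b lower in each). The part that these other cell types play in the changes below was not tested, and in such bulk samples fewer cells of a type and less RNA per cell cannot be told apart. Same-numbered dendritic cell arrays also differed together from the arrays of the other number, which is described with the genes it touches.

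Apoptosis runs through a balance at the mitochondrion. BH3-only proteins carry death signals, anti-apoptotic Bcl2 proteins hold them in check, and Bak1 and Bax form the pore that releases cytochrome c once that check fails. Released cytochrome c assembles Apaf1 and Casp9 into the apoptosome, which activates the executioner caspases, while death receptors reach the caspases through Fadd and Casp8, with Cflar as a brake. IAP proteins restrain caspases or steer TNF receptor signalling towards survival, and necroptosis through Ripk3 and Mlkl is a lytic route open when Casp8 is inactive. Bcl2l11 (Bim) is known for limiting the life span of dendritic cells, and TNF receptor signalling is known for inducing survival genes such as Birc3 and Cflar through NF-kB.

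The mean levels of the 40 genes ran from 3.10 in GM-TNFa-DC for Bcl2l10 to 12.07 in GM-TNFa-DC for Mcl1. Of the 40, 36 had a mean over all arrays above 4.77, taken here as the limit below which a gene is called dim. The median over the genes was 7.63 in GM-MPP, 7.63 in GM-DC and 7.45 in GM-TNFa-DC. Levels of different genes come from different probes, so they are not ranked against each other below.

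**Figure D1:**
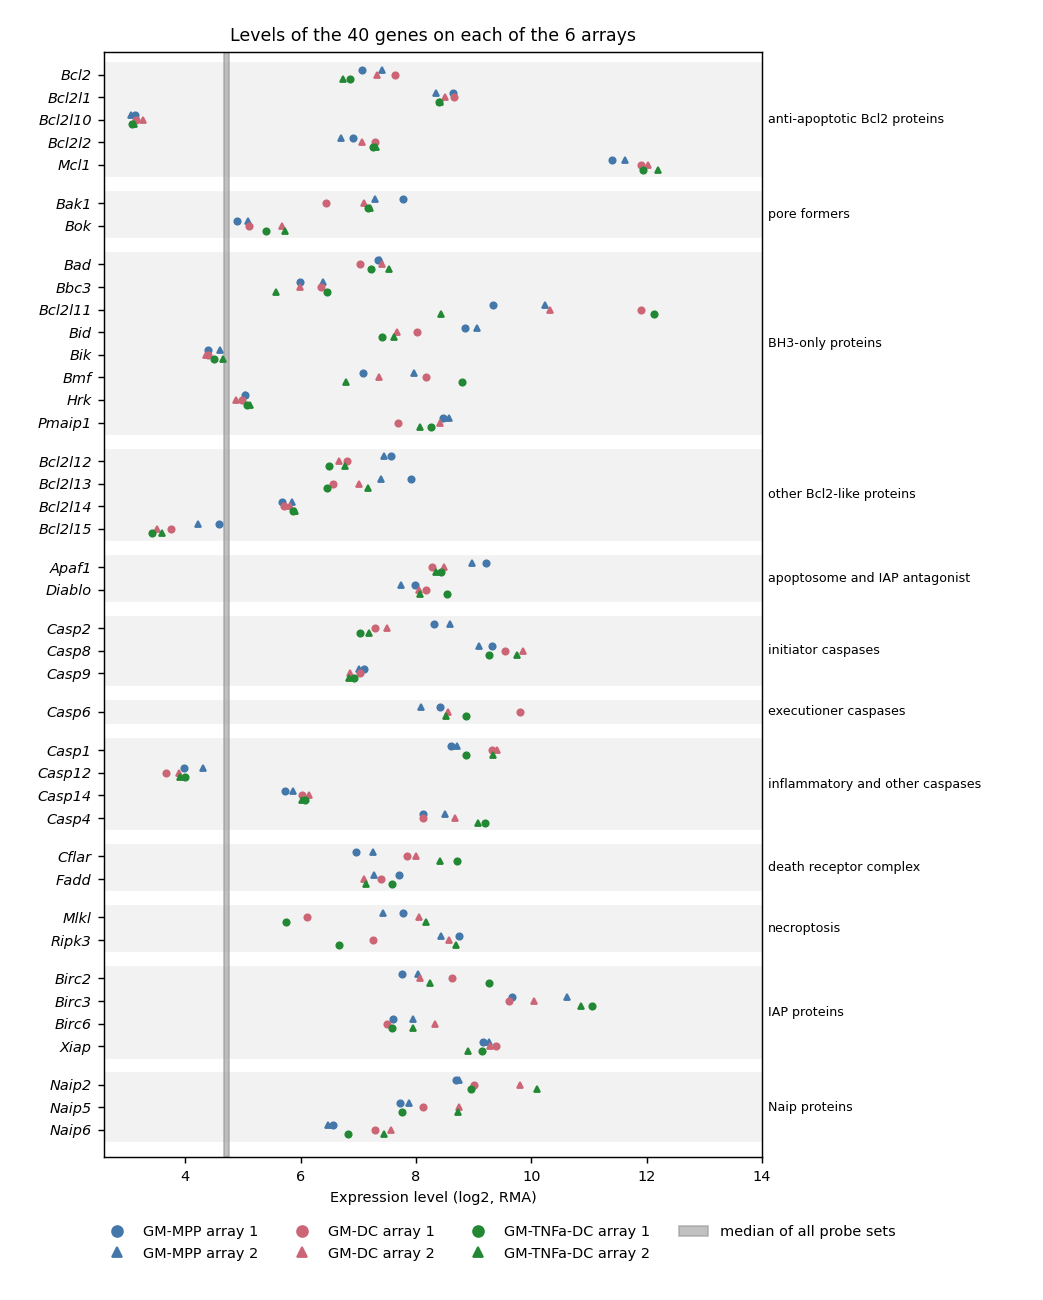
Expression level (log2, horizontal axis) of each of the 40 genes on each of the 6 arrays, grouped by role; colours give the group, circles the arrays numbered 1 and triangles those numbered 2, and the grey band the medians of all probe sets (4.67 to 4.77). Most genes lie to the right of the grey band in all 3 groups, and Bcl2l11, Mlkl and Ripk3 show wide gaps between circles and triangles of the dendritic cell groups.

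The largest change around these genes was in Bcl2a1 (A1), an anti-apoptotic Bcl2 protein that mice encode in several near-identical copies. No probe set on the array is assigned to 1 Bcl2a1 gene alone, so none of the copies is among the 40 genes, and the values below belong to the copies together. The brightest of 3 shared probe sets, listed for Bcl2a1a, Bcl2a1b and Bcl2a1d, had levels of 8.25 and 8.09 in GM-MPP, 12.23 and 12.87 in GM-DC, and 13.00 and 13.10 in GM-TNFa-DC. All 4 dendritic cell arrays were far above both progenitor arrays. In limma, fitted over all 45037 probe sets that are not controls, it rose by 4.38 ± 0.25 (SE), or 20.8-fold, in GM-DC against GM-MPP (adjusted p = 0.00370). In GM-TNFa-DC against GM-MPP it rose by 4.88 ± 0.25, or 29.4-fold (adjusted p = 0.00268). The first call was lost without the second GM-MPP array (adjusted p = 0.0593), and the second was kept under every one of the 14 alternative settings run. Of all probe sets, 2.78% and 4.44% were called in these 2 comparisons. The level in the dendritic cells is close to the brightest value on the arrays, 14.4, where array signals can be compressed. Between GM-TNFa-DC and GM-DC the difference was 0.50 ± 0.25 (adjusted p = 1.00 in limma), higher with TNFa on both numbers but not past the threshold.

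A second shared probe set for the same genes was dimmer and was also higher in the dendritic cells, with levels of 4.30 and 4.30 in GM-MPP, 5.38 and 6.06 in GM-DC, and 6.16 and 6.39 in GM-TNFa-DC. Its change was 1.42 ± 0.27 in GM-DC against GM-MPP (adjusted p = 0.0549) and 1.98 ± 0.27 in GM-TNFa-DC against GM-MPP (adjusted p = 0.0221), of which only the latter passed the threshold, and it was lost in 4 of the 14 alternatives. The third, which also lists Bcl2a1c, stayed below the array median on all 6 arrays (2.50 to 3.05) and gives no reading of that copy.

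The promoters of the copies are shown so that the copies can be compared: RefSeq (GRCm38.p6) places all 4 genes on chromosome 9, and the 300 bases from 250 before to 50 after each start are closely alike where they align. They are printed 5′ to 3′ on the strand of the gene, in lower case, with capitals for GAGGAAGT, a sequence that fits the PU.1 (an ETS factor of myeloid cells) recognition site.
Bcl2a1a, chr9:88956670-88956969, plus strand: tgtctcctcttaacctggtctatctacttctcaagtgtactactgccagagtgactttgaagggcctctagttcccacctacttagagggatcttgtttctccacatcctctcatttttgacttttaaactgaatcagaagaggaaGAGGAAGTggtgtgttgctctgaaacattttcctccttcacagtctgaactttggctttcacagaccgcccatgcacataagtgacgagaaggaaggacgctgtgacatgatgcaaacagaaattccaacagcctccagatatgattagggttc
Bcl2a1b, chr9:89199023-89199322, plus strand: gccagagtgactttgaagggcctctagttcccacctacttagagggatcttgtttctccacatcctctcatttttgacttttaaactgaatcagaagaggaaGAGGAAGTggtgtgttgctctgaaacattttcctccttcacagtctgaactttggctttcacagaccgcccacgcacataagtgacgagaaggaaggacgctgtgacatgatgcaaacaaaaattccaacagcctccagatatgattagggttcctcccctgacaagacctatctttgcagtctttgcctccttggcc
Bcl2a1d, chr9:88731801-88732100, minus strand: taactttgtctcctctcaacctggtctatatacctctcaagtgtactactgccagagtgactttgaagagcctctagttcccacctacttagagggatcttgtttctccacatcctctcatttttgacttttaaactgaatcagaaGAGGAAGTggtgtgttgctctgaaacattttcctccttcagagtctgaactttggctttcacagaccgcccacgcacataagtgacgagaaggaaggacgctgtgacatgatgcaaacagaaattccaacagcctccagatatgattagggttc
Bcl2a1c, chr9:114329885-114330184, plus strand: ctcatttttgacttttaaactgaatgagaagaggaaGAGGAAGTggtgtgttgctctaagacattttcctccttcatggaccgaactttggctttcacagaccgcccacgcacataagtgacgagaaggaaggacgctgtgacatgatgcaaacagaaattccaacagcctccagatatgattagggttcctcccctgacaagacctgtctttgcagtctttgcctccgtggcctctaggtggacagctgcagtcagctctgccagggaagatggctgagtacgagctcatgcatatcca

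In local alignments these windows were 99.2% identical between Bcl2a1a and Bcl2a1b over 256 aligned columns, 96% between Bcl2a1a and Bcl2a1d over 300, and 93.2% between Bcl2a1c and Bcl2a1d over 190. Each holds GAGGAAGT once, on the strand shown, starting 104 bases before the start in Bcl2a1a and Bcl2a1d, 148 in Bcl2a1b and 214 in Bcl2a1c. Searched on both strands, the same letters occur in 3.2% of all 32851 RefSeq promoters of this length, and in 3 of the 50 promoters listed for 37 of the 40 genes (Bak1, Bad and Bcl2l14). A match is a description of the letters, and no binding was measured here.

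Mcl1, an anti-apoptotic protein with a short half-life, was bright in every group. Its brightest probe set read 11.40 and 11.62 in GM-MPP, 11.91 and 12.03 in GM-DC, and 11.94 and 12.19 in GM-TNFa-DC, with all dendritic cell arrays above both progenitor arrays. The change was 0.45 ± 0.18 in GM-DC (adjusted p = 0.222) and 0.55 ± 0.18 in GM-TNFa-DC (adjusted p = 0.131) against GM-MPP, neither past the threshold. This probe set was the least moved of the 6 for Mcl1: all 6 were higher in the dendritic cells, by 0.45 to 1.13 in GM-DC and by 0.55 to 1.11 in GM-TNFa-DC. In the fit over all probe sets 1 of them was called in GM-DC and 3 in GM-TNFa-DC. The one called in GM-DC passed in 7 of 14 alternative settings in each comparison, and its calls were lost with any 1 array left out and with only the 4 arrays compared. Averaging them gave 0.96 in GM-TNFa-DC against GM-MPP (adjusted p = 0.0413), so that for Mcl1 the call depends on which probes are read.

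**Figure D2:**
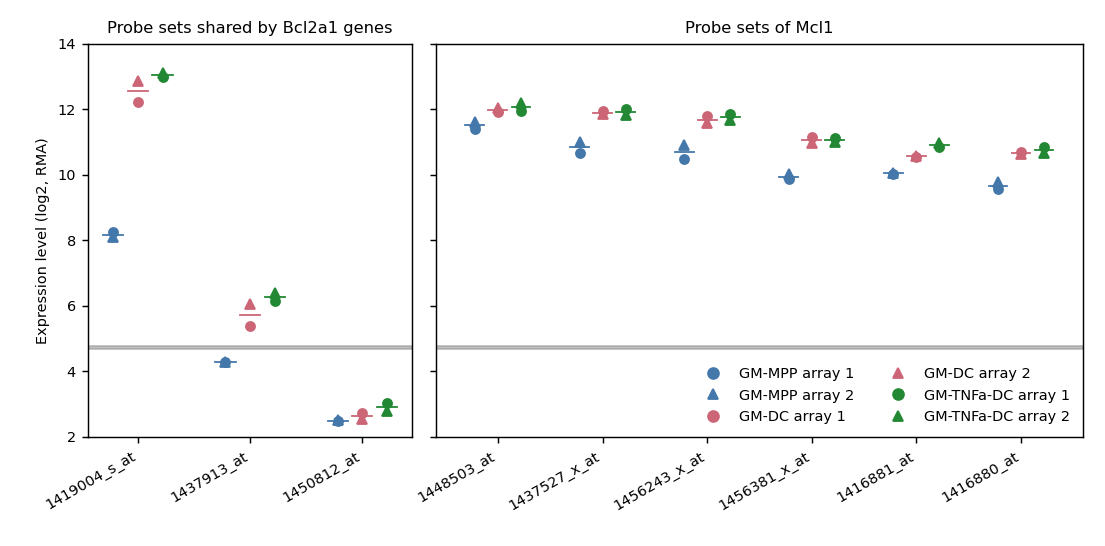
Levels (log2, vertical axis) of the 3 probe sets shared by Bcl2a1 genes (left) and the 6 probe sets of Mcl1 (right) on each array; colours give the group, circles and triangles the array number, short lines the group means and the grey band the medians of all probe sets. The brightest Bcl2a1 probe set goes from about the level of 8.25 and 8.09 in GM-MPP to between 12.23 and 13.10 in the dendritic cells, and every Mcl1 probe set is higher in both dendritic cell groups.

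The other anti-apoptotic genes differed less. Bcl2, the founding member of the family, read 7.07 and 7.41 in GM-MPP, 7.63 and 7.33 in GM-DC, and 6.85 and 6.73 in GM-TNFa-DC. It was highest in GM-DC on array 1 and lowest on the GM-TNFa-DC arrays, which lay below all 4 others. Its difference between GM-TNFa-DC and GM-DC was -0.69 ± 0.23 (unadjusted p = 0.0242, adjusted p = 1.00 in limma), and all 5 of its probe sets were lower with TNFa, with differences of -0.69 to -0.19. Bcl2l1 (Bcl-xL) stayed within a narrow band, with 8.64 and 8.35 in GM-MPP, 8.66 and 8.51 in GM-DC, and 8.39 and 8.42 in GM-TNFa-DC. Bcl2l2 (Bcl-w) ranged from 6.71 to 7.30 and was higher on all 4 dendritic cell arrays than on both progenitor arrays, and Bcl2l10 was dim throughout (3.07 to 3.26). All 5 anti-apoptotic genes had a higher mean in GM-DC than in GM-MPP, as had 9658 of all 18193 genes, and 3 of the 5 were without overlap of arrays (28.3% of all genes). None of the 5 passed the threshold.

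No gene of the 40 was called in GM-DC against GM-MPP, where 4.5% of all genes were, 1.87% higher and 2.63% lower (limma, Benjamini-Hochberg adjusted p under 0.05), and the lowest adjusted p was 0.0596. At an unadjusted p under 0.05, 4 were higher and 7 lower (27.5%, against 21.6% of all genes). The arrays of the 2 groups did not overlap for 16 higher genes (40%, against 28.3% of all genes) and 11 lower ones (27.5%, against 27%). In GM-TNFa-DC against GM-MPP, 1 gene was called higher and 3 lower, 10% of the 40 against 7.03% of all genes (2.77% higher and 4.26% lower). Cflar was the higher one, and Bid, Casp2 and Bcl2l15 the lower ones. At an unadjusted p under 0.05, 3 were higher and 5 lower (20%, against 25.1% of all genes), and arrays did not overlap for 15 higher genes (37.5%, against 31.6%) and 11 lower ones (27.5%, against 26.1%). Each of the 4 calls was lost in at least 4 of 6 refits that left out 1 array, although each kept its direction there. The median change over the 40 was 0.09 in GM-DC and 0.04 in GM-TNFa-DC, against 0.02 and 0.05 over all genes. Means were higher for 22 genes and lower for 18 in GM-DC, and for 21 and 19 in GM-TNFa-DC.

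**Figure D3:**
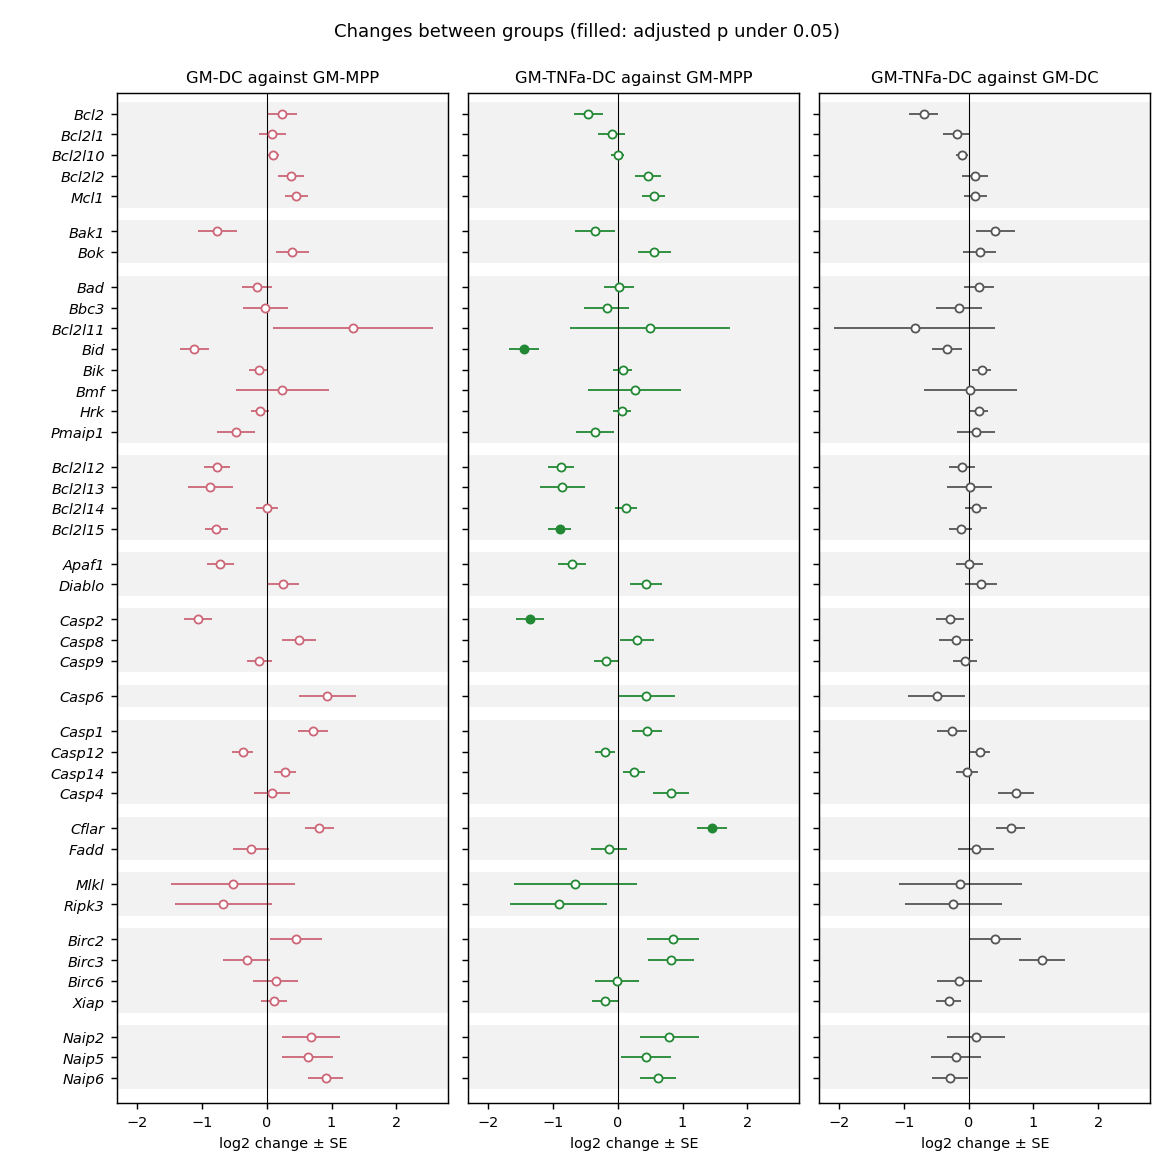
Log2 change ± SE (horizontal axis) of each of the 40 genes in the 3 comparisons, grouped by role in the order of the plot of levels; filled circles passed an adjusted p of 0.05 in limma. Filled circles are found only in the middle panel, for Cflar (higher) and Bid, Casp2 and Bcl2l15 (lower), and the changes in the right panel, GM-TNFa-DC against GM-DC, stay close to 0 with few exceptions.

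The BH3-only proteins, which carry death signals, were 8 genes with Bid as the one that passed the test. Bid links death receptors to the mitochondrion, because Casp8 cleaves it into its active form. Its levels were 8.85 and 9.07 in GM-MPP, 8.02 and 7.67 in GM-DC, and 7.41 and 7.61 in GM-TNFa-DC. Both progenitor arrays were above all 4 dendritic cell arrays. It fell by 1.45 ± 0.23 on the log2 scale in GM-TNFa-DC against GM-MPP, to a level 2.73-fold lower (adjusted p = 0.0269), and all 3 of its probe sets were called, at -1.45 to -1.13. In GM-DC the difference was -1.11 ± 0.23 (adjusted p = 0.0607), just outside the threshold.

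Bcl2l11 (Bim), the BH3-only protein best known for limiting the life of dendritic cells, had the largest mean difference of the 40 genes in GM-DC against GM-MPP and the widest spread. Its levels were 9.33 and 10.23 in GM-MPP, 11.90 and 10.33 in GM-DC, and 12.13 and 8.43 in GM-TNFa-DC. Both number-1 dendritic cell arrays were the highest, at 11.90 and 12.13, while the number-2 array of GM-TNFa-DC was the lowest of all 6. The difference was 1.33 ± 1.24 in GM-DC (adjusted p = 0.594) and 0.50 ± 1.24 in GM-TNFa-DC (adjusted p = 0.831), neither past the threshold. Both GM-DC arrays were above both GM-MPP arrays, while GM-TNFa-DC overlapped with GM-MPP. The 2 GM-DC arrays lay 1.57 apart and the 2 GM-TNFa-DC arrays 3.70. Within number 1 the GM-DC difference was 2.57, and within number 2 it was 0.10. In GM-TNFa-DC the 2 numbers went opposite ways, at 2.80 and -1.80.

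Bmf, a BH3-only protein tied to the cytoskeleton, also had its highest levels on the number-1 dendritic cell arrays and its lowest on the number-2 array of GM-TNFa-DC, with 7.09 and 7.97 in GM-MPP, 8.17 and 7.37 in GM-DC, and 8.79 and 6.79 in GM-TNFa-DC. Pmaip1 (Noxa), which targets Mcl1, ranged from 7.68 to 8.57, Bbc3 (Puma), a p53 target, from 5.58 to 6.46, and Bad, which growth factor signalling inactivates, from 7.03 to 7.54. Bik ranged from 4.36 to 4.66 and Hrk from 4.88 to 5.12, both near the array median. None of Bmf, Pmaip1, Bbc3 and Bad was called in any comparison of the 3 groups, and neither were Bik and Hrk.

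Of the pore formers, Bak1 read 7.77 and 7.30 in GM-MPP, 6.44 and 7.11 in GM-DC, and 7.17 and 7.20 in GM-TNFa-DC and was lower on all dendritic cell arrays, with differences of -0.76 in GM-DC and -0.35 in GM-TNFa-DC on the log2 scale (adjusted p = 0.228 and 0.514 in limma). Its other probe set did not follow, with 0.40 in GM-TNFa-DC and a difference near 0 in GM-DC. Bok, a related pore former, ranged from 4.91 to 5.73, not far above the array median. It was higher on all dendritic cell arrays than on both GM-MPP arrays. The differences were 0.39 in GM-DC and 0.56 in GM-TNFa-DC (adjusted p = 0.434 and 0.237 in limma). Bax was not analysed here. Of the Bcl2-like genes with less settled roles, Bcl2l15 passed the test in GM-TNFa-DC against GM-MPP at -0.90 ± 0.18 (adjusted p = 0.0450). Its levels, 4.59 and 4.22 in GM-MPP, 3.75 and 3.51 in GM-DC, and 3.42 and 3.60 in GM-TNFa-DC, were below the array median throughout, so that call concerns a gene among the dim ones. Bcl2l12 was the next closest, at -0.87 ± 0.20 (adjusted p = 0.0656), with 7.56 and 7.45 in GM-MPP, 6.81 and 6.67 in GM-DC, and 6.50 and 6.77 in GM-TNFa-DC. The other probe set of Bcl2l12 did not follow, with 0.17 in GM-DC and -0.05 in GM-TNFa-DC against GM-MPP. Bcl2l13, a mitochondrial member, was lower on every dendritic cell array (6.45 to 7.92 over all 6 arrays), and Bcl2l14 stayed between 5.68 and 5.90. The other probe set of Bcl2l13 was called lower in GM-TNFa-DC against GM-MPP in the limma fit over all probe sets (-1.18, adjusted p = 0.0387). For 3 of these 4 genes the dendritic cell arrays lay below the progenitor arrays in both comparisons, as they did for 27% of all genes in GM-DC and 26.1% in GM-TNFa-DC.

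Apaf1, the scaffold of the apoptosome, was lower in the dendritic cells, with 9.22 and 8.97 in GM-MPP, 8.27 and 8.49 in GM-DC, and 8.43 and 8.35 in GM-TNFa-DC. The 2 progenitor arrays did not overlap with the other 4, and the difference was -0.71 ± 0.21 in GM-DC (adjusted p = 0.128) and -0.70 ± 0.21 in GM-TNFa-DC (adjusted p = 0.112). Diablo (Smac), which frees caspases from IAP proteins, ranged from 7.74 to 8.53. Casp9, the caspase that the apoptosome activates, was nearly level, with 7.11 and 7.02 in GM-MPP, 7.04 and 6.86 in GM-DC, and 6.93 and 6.85 in GM-TNFa-DC.

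Casp2, an initiator caspase linked to DNA damage and to checks on cell division, was the caspase that passed the test. It read 8.31 and 8.60 in GM-MPP, 7.29 and 7.50 in GM-DC, and 7.04 and 7.18 in GM-TNFa-DC. Every dendritic cell array was below both progenitor arrays. It fell by 1.35 ± 0.22 on the log2 scale in GM-TNFa-DC against GM-MPP, 2.54-fold (adjusted p = 0.0272), and had the lowest adjusted p of the 40 genes in GM-DC (log2 change of -1.06 ± 0.22, adjusted p = 0.0596). Casp8, the initiator at death receptors, read 9.33 and 9.09 in GM-MPP, 9.55 and 9.86 in GM-DC, and 9.26 and 9.76 in GM-TNFa-DC. Both GM-DC arrays were above both GM-MPP arrays, by 0.50 ± 0.26 on average (adjusted p = 0.341 in limma), while GM-TNFa-DC overlapped with GM-MPP. Casp6, an executioner caspase, was highest on the first GM-DC array, with 8.42 and 8.08 in GM-MPP, 9.81 and 8.56 in GM-DC, and 8.86 and 8.52 in GM-TNFa-DC. Its difference in GM-DC was 0.93 ± 0.44 (adjusted p = 0.295), with 1.39 on number 1 and 0.47 on number 2, and its probe sets spanned -0.04 to 0.93.

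The inflammatory caspases process interleukin 1 beta or cut gasdermin D. Casp1, the caspase of the inflammasome, had levels of 8.60 and 8.71 in GM-MPP, 9.33 and 9.41 in GM-DC, and 8.88 and 9.34 in GM-TNFa-DC. It was higher on all 4 dendritic cell arrays, by 0.71 ± 0.23 in GM-DC (adjusted p = 0.158) and 0.46 ± 0.23 in GM-TNFa-DC (adjusted p = 0.288). Casp4 (caspase-11), which senses bacterial lipopolysaccharide in the cytosol, read 8.12 and 8.51 in GM-MPP, 8.12 and 8.68 in GM-DC, and 9.20 and 9.07 in GM-TNFa-DC. Both GM-TNFa-DC arrays were above the other 4. Against GM-DC the difference was 0.74 ± 0.28 (unadjusted p = 0.0397, adjusted p = 1.00 in limma), 1.08 on number 1 and 0.39 on number 2. Casp12 was below the array median on all arrays (3.67 to 4.30) and Casp14, a caspase of the skin, ranged from 5.73 to 6.14. The promoter of Casp4 is shown because it is the one, among the genes most moved with TNFa, that holds matches to the NF-kB consensus, in capitals, in this window.
Casp4, chr9:5308599-5308898, GRCm38.p6, plus strand: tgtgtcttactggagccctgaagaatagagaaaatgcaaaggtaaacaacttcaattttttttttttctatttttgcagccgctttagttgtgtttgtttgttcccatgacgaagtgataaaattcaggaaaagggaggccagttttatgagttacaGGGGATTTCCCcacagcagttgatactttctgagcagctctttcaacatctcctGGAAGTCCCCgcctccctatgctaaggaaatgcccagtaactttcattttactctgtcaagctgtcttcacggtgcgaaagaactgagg

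The 3 matches, counted on both strands and some of them overlapping, cover 21 bases, and the first starts 93 bases before the start of the gene. Such a match occurs in 8.46% of all RefSeq promoters of this length, and in 8 of the 50 promoters listed for 37 of the 40 genes. These 8 belong to Bcl2l1, Bbc3, Bmf, Casp4, Hrk, Naip5 and Xiap. The windows of Birc3, Cflar, Bcl2 and the 4 Bcl2a1 genes hold no such match, which says only that the letters are not in this window. The FOXO sequence TGTTTAC occurs in 4 promoters of 3 of the genes, Bcl2l11, Bbc3 and Casp4, and in 3.65% of all promoters. In both counts Casp4 enters with overlapping windows, chr9:5308599-5308898 and chr9:5308610-5308909, which hold the same matches.

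Cflar (c-FLIP), which blocks Casp8 at death receptors, was the gene called higher. Its levels were 6.96 and 7.26 in GM-MPP, 7.84 and 8.0 in GM-DC, and 8.71 and 8.42 in GM-TNFa-DC. The 3 groups did not overlap, with GM-MPP lowest, GM-DC between and GM-TNFa-DC highest on both numbers. It rose by 1.46 ± 0.23, 2.75-fold, in GM-TNFa-DC against GM-MPP (adjusted p = 0.0264). The steps were 0.81 ± 0.23 from GM-MPP to GM-DC (adjusted p = 0.118) and 0.65 ± 0.23 from GM-DC to GM-TNFa-DC (unadjusted p = 0.0319, adjusted p = 1.00 in limma). Its 5 probe sets disagreed against GM-MPP. In GM-TNFa-DC 4 were higher and 1 lower (-0.80 to 1.46), and their mean change of 0.58 was not called (adjusted p = 0.367). In GM-DC 3 were higher and 2 lower (-0.94 to 0.83). All 5 were higher with TNFa than without it, by 0.13 to 0.93. Fadd, the adaptor that recruits Casp8, ranged from 7.10 to 7.71 and overlapped between all groups.

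Of the IAP genes, Birc3 (cIAP2), a ubiquitin ligase of TNF receptor complexes, differed most between GM-TNFa-DC and GM-DC. It read 9.66 and 10.61 in GM-MPP, 9.61 and 10.05 in GM-DC, and 11.05 and 10.87 in GM-TNFa-DC. Both GM-TNFa-DC arrays were the highest, but the second GM-MPP array was also above both GM-DC arrays. The difference between GM-TNFa-DC and GM-DC was 1.13 ± 0.36, or 2.19-fold (unadjusted p = 0.0215, adjusted p = 1.00 in limma), 1.44 on number 1 and 0.82 on number 2. The other probe set of Birc3 was higher by only 0.27 in this comparison. Birc2 (cIAP1), its close relative, had levels of 7.76 and 8.04 in GM-MPP, 8.63 and 8.07 in GM-DC, and 9.27 and 8.25 in GM-TNFa-DC, highest on the number-1 dendritic cell arrays. Xiap, the direct caspase inhibitor, was flat at 9.17 and 9.26 in GM-MPP, 9.39 and 9.28 in GM-DC, and 9.14 and 8.90 in GM-TNFa-DC, and Birc6, a very large ubiquitin-conjugating member, ranged from 7.50 to 8.32.

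In GM-TNFa-DC against GM-DC as a whole, none of the 40 genes and none of the 18193 (0%) passed the threshold, and the lowest adjusted p over the 40 was 1.00. Array number was not a term in this fit, so the number difference that both dendritic cell groups shared counted as spread. Fits with a replicate block called none of the 40 here either. At an unadjusted p under 0.05, Birc3, Casp4 and Cflar were higher and Bcl2 lower, 10% of the 40 against 2.25% of all genes. The arrays did not overlap for 8 higher genes (20%, against 14.9% of all genes) and 6 lower ones (15%, against 10.6%). These 3 comparisons share groups, so the Cflar values against GM-MPP and GM-DC rest on the same 2 GM-TNFa-DC arrays.

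**Figure D4:**
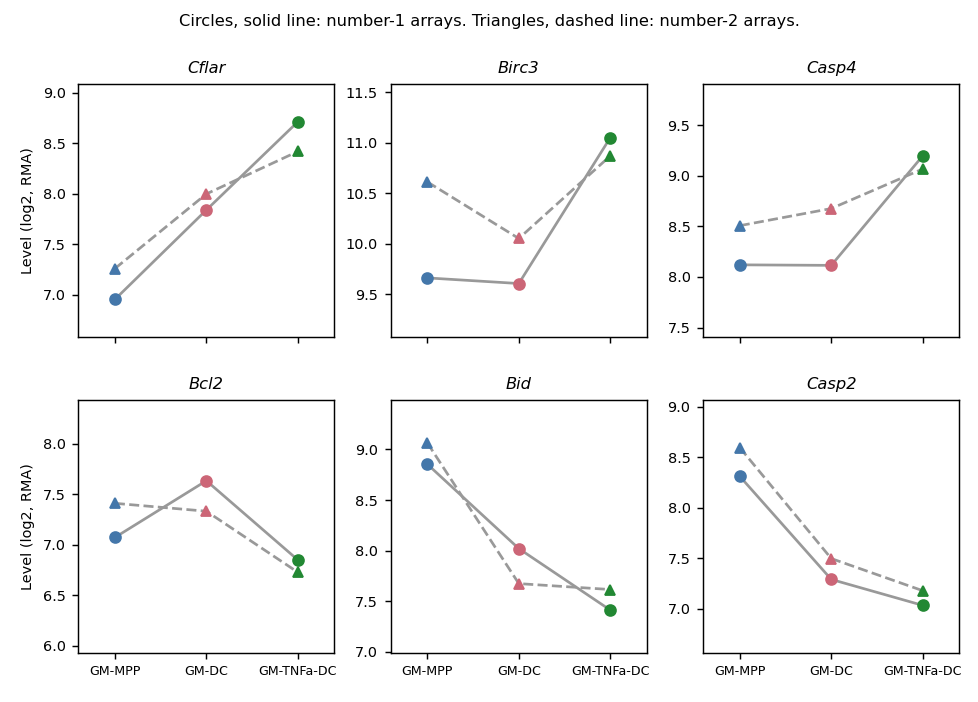
Levels (log2, vertical axis; every panel spans the same range) of Cflar, Birc3, Casp4, Bcl2, Bid and Casp2 on each array by group, with circles and solid lines for the arrays numbered 1 and triangles and dashed lines for those numbered 2; the lines join equal numbers only to guide the eye. Cflar climbs from 6.96 and 7.26 to 8.71 and 8.42, Birc3 and Casp4 are highest in GM-TNFa-DC, and Bid and Casp2 are lower on all 4 dendritic cell arrays than on both GM-MPP arrays.

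The necroptosis genes differed between the array numbers of the dendritic cells more than between groups. Ripk3, the kinase of the pathway, read 8.74 and 8.43 in GM-MPP, 7.25 and 8.58 in GM-DC, and 6.67 and 8.69 in GM-TNFa-DC, and Mlkl, the protein it phosphorylates to break the membrane, read 7.78 and 7.43 in GM-MPP, 6.11 and 8.06 in GM-DC, and 5.74 and 8.17 in GM-TNFa-DC. In both dendritic cell groups the number-1 array was below both progenitor arrays for each gene. The number-2 array lay between the progenitor arrays for Ripk3 and above both of them for Mlkl. In a fit to the 4 dendritic cell arrays with treatment as a term, the number-2 arrays were higher by 2.19 ± 0.18 for Mlkl (adjusted p = 0.00447) and 1.67 ± 0.21 for Ripk3 (adjusted p = 0.0127). In that fit 4 of the 40 genes were higher and 3 lower on number 2, 17.5% of them against 11.8% of all genes (6.41% higher and 5.41% lower), with 1 residual degree of freedom.

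The 3 lower genes were Bcl2l11 (-2.64 ± 0.49, adjusted p = 0.0351), Bmf (-1.40 ± 0.30, adjusted p = 0.0493) and Birc2 (-0.79 ± 0.17, adjusted p = 0.0464). Only 1 lower call was left with a second quantile normalization, with the probe sets of a gene averaged, or over all probe sets. All 5 probe sets of Bcl2l11 were lower on number 2. The GM-MPP arrays went the other way for these genes, with number 2 higher by 0.90 for Bcl2l11, 0.88 for Bmf and 0.29 for Birc2. For Ripk3 and Mlkl the number-2 GM-MPP array differed from number 1 by -0.31 and -0.35 on the log2 scale. The 2 arrays of a group were more than 2-fold apart for none of the 40 genes in GM-MPP (2.18% of all genes), 4 in GM-DC (10%, against 7.31%) and 6 in GM-TNFa-DC (15%, against 8.94%). For Bcl2l11, Bmf, Birc2, Ripk3 and Mlkl the dendritic cell arrays therefore split the other way from the progenitor arrays.

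The Naip proteins, sensors of bacterial flagellin and secretion systems that start the inflammasome, were also higher on number 2. Naip2 read 8.70 and 8.75 in GM-MPP, 9.01 and 9.81 in GM-DC, and 8.96 and 10.09 in GM-TNFa-DC, Naip5 7.73 and 7.88 in GM-MPP, 8.13 and 8.75 in GM-DC, and 7.76 and 8.73 in GM-TNFa-DC, and Naip6 6.56 and 6.47 in GM-MPP, 7.29 and 7.56 in GM-DC, and 6.82 and 7.45 in GM-TNFa-DC. All dendritic cell arrays of Naip2 and Naip6 were above both progenitor arrays, and for Naip5 only the first GM-TNFa-DC array was not above the second progenitor array. The number-2 arrays of the dendritic cells were higher by 0.96 ± 0.14 for Naip2 (adjusted p = 0.0201), 0.79 ± 0.15 for Naip5 (adjusted p = 0.0376) and 0.46 ± 0.16 for Naip6 (adjusted p = 0.155), the last not past the threshold. Against GM-MPP, Naip6 differed by 0.91 ± 0.27 in GM-DC (adjusted p = 0.134). The Naip genes are close copies of each other, so probes may read more than 1 of them and the assignment is uncertain.

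**Figure D5:**
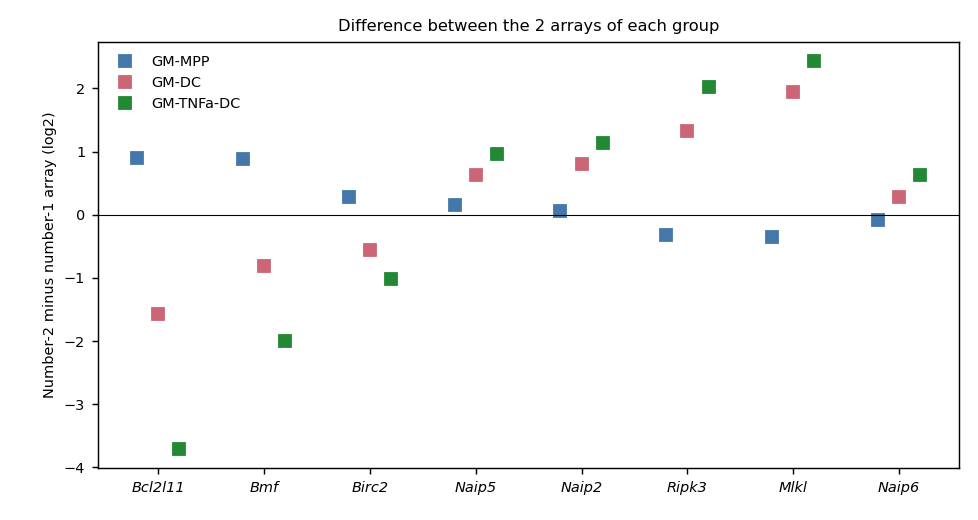
Number-2 array minus number-1 array (log2, vertical axis) in each group, for the 7 genes called in the fit of array number to the dendritic cell arrays and for Naip6; squares are single differences, with no error. In Bcl2l11, Bmf and Birc2 both dendritic cell squares are below 0 and the GM-MPP square above it, and in Ripk3 and Mlkl the order is turned.

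Cell type markers split by array number as well: 9 of the 10 dendritic cell markers were called lower on number 2. The mean level of the 10 dendritic cell markers was 10.4 on array 1 and 8.85 on array 2 of GM-DC, and 10.7 and 9.15 in GM-TNFa-DC. Kit, a progenitor and mast cell receptor, read 9.0 and 5.65 in GM-DC and 8.66 and 5.43 in GM-TNFa-DC on arrays 1 and 2. H2-Aa, an MHC class II chain, read 13.60 and 12.12 in GM-DC and 13.76 and 12.30 in GM-TNFa-DC, and Fcgr1, a macrophage Fc receptor, 8.11 and 9.89 in GM-DC and 6.65 and 9.38 in GM-TNFa-DC. The other lists went both ways: on number 2, 1 of 6 progenitor markers was called higher and 2 lower, 1 of 6 macrophage markers higher and 2 lower, and 1 of 8 neutrophil markers higher and 4 lower. Of 5 mast cell and basophil markers 1 was called lower, of 3 erythroid and megakaryocyte genes 1 higher, and of 5 lymphoid genes none. The part of cell composition in the split of Bcl2l11, Bmf, Birc2, Ripk3, Mlkl and the Naip genes was not tested.

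Of 40 pathway partners listed by role (death receptors, p53 targets, inflammasome, mitochondrial proteins and nucleases), 35 were measured. In GM-DC against GM-MPP 2 of them were called higher and 1 lower, 8.57% of them against 4.5% of all genes, and in GM-TNFa-DC against GM-MPP 5 higher and 1 lower, 17.1% against 7.03%. None was called between the dendritic cell groups. Cdkn1a (p21), the cell cycle inhibitor induced by p53, read 8.98 and 8.96 in GM-MPP, 11.38 and 11.09 in GM-DC, and 12.24 and 11.29 in GM-TNFa-DC, a rise of 2.26 ± 0.34 in GM-DC (adjusted p = 0.0288) and 2.79 ± 0.34 in GM-TNFa-DC (adjusted p = 0.0151). Zmat3, another p53 target, rose by 1.61 ± 0.26 and 1.28 ± 0.26 (adjusted p = 0.0323 and 0.0456), and Phlda3 by 1.78 ± 0.36 in GM-TNFa-DC (adjusted p = 0.0485). The p53 list did not move as a whole. Of its 8 measured genes, 2 had a lower mean in GM-DC and 3 in GM-TNFa-DC than in GM-MPP. In each comparison 1 of the 8 was at least 2-fold lower, and none was called lower.

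Fas, the death receptor, read 6.21 and 7.03 in GM-MPP, 8.04 and 8.05 in GM-DC, and 9.64 and 8.65 in GM-TNFa-DC. It was higher on all dendritic cell arrays and rose by 2.53 ± 0.42 in GM-TNFa-DC against GM-MPP (adjusted p = 0.0305). Tnfaip3 (A20), an NF-kB target that curbs TNF receptor signalling, was highest on the GM-TNFa-DC arrays, at 8.31 and 9.18 in GM-MPP, 9.12 and 9.20 in GM-DC, and 10.41 and 10.36 in GM-TNFa-DC, a rise of 1.64 ± 0.32 over GM-MPP (adjusted p = 0.0421). Dffb, the nuclease that cuts DNA in apoptosis, was the one called lower, with 5.83 and 5.63 in GM-MPP, 4.46 and 4.11 in GM-DC, and 4.07 and 4.12 in GM-TNFa-DC. It fell by 1.44 ± 0.18 in GM-DC and by 1.64 ± 0.18 in GM-TNFa-DC on the log2 scale (adjusted p = 0.0195 and 0.0118), to levels below the array median, where changes can be compressed. It was the one gene called among the 10 mitochondrial proteins, nucleases and substrates. Of these 10, 9 had a lower mean in GM-DC and 8 in GM-TNFa-DC than in GM-MPP. Their median change was -0.70 in GM-DC and -0.66 in GM-TNFa-DC, against 0.02 and 0.05 over all genes. Arrays did not overlap for 7 lower genes in GM-DC (70%, against 27% of all genes) and 6 in GM-TNFa-DC (60%, against 26.1%).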

How the data were processed

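The deposited table holds log2 expression values of 45101 probe sets on 6 arrays, which the authors made with RMA, per the submitters' processing notes, and Bioconductor, per the labels; their versions were not given in the sources used here. That the scale is log2 was inferred from the range of 1.89 to 14.4. RMA normalizes arrays to each other, so overall differences in brightness are removed. No detection call was used.

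Of 45037 probe sets that are not controls, 34945 had 1 gene symbol, 932 several and 9160 none listed. Each gene was read from the probe set, among those with its symbol alone, that was brightest on average over the 6 arrays (18193 genes). The 40 genes have 95 such probe sets, and 25 genes have more than 1. No pair of arrays held identical values.

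limma 3.58.1 in R 4.3.3 fitted the 3 groups together (lmFit and eBayes with an intensity trend, 3 residual degrees of freedom). Adjusted p-values are Benjamini-Hochberg values over all genes, called under 0.05. Each ± is a moderated standard error. Array number was fitted on the 4 dendritic cell arrays with treatment as a term, and probe sets that several genes share in a fit over all probe sets. The scripts were tested on simulated data. Members, lists and tests were chosen with earlier results of these data known. Values on every array are given for genes called in any comparison, the 4 largest changes without overlap of arrays in each comparison, and a panel of well-known genes; others by range. As alternatives, arrays were quantile-normalized again or centred on their medians, dim genes were left out, probe sets of a gene were averaged, and fits were made with no trend, a robust prior, only the 4 arrays compared, a replicate block, a 2-fold minimum or 1 array left out; a block on the 4 arrays compared, all probe sets and the probe set repeats were added after seeing the data. Promoters are from RefSeq, GRCm38.p6, and their local alignments were made with Biopython. Python 3.11.15 and matplotlib 3.10.9 drew the plots.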

Additional observations from a re-analysis of the deposited data

How the results depend on the processing

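No call changed its direction under any alternative. In GM-DC against GM-MPP, where 0 genes were called, median centring called 1 lower (Casp2), leaving out dim genes 2 (Bid and Casp2) and the fit without an intensity trend 2; no alternative called a higher one. In GM-TNFa-DC against GM-MPP the single higher call fell to 0 with only the 4 arrays compared, and to 0 for every array left out (range 0 to 0). The 3 lower calls fell to 1 with only the 4 arrays compared, and ranged from 0 to 1 when 1 array was left out, the 1 being Bid without either GM-DC array. Over the alternatives the adjusted p ranged from 0.0194 to 0.148 for Bid, 0.0187 to 0.146 for Casp2, 0.0191 to 0.367 for Cflar and 0.0396 to 0.221 for Bcl2l15. For array number in the dendritic cells, 4 genes were higher, 2 of them at least 2-fold; the 3 lower calls fell to 1 with a second quantile normalization, 1 with the mean of probe sets and 1 over all probe sets. The causes were not tested. No alternative called any of the 40 genes in GM-TNFa-DC against GM-DC.

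Equal replicate numbers were not treated as pairs in the main fit, because the labels do not say what equal numbers share. Deviations from the group mean correlated at 0.806 between GM-DC and GM-TNFa-DC over all genes, but at 0.105 and 0.0719 between GM-MPP and these groups. Over the 40 genes these values were 0.821, -0.284 and -0.559. The main fit therefore counts the number difference shared by the dendritic cell groups as spread, also in GM-TNFa-DC against GM-DC. With the replicate block on all 6 arrays, 1 gene (Casp2, adjusted p = 0.0356) was called lower in GM-DC against GM-MPP, and the counts of 1 higher and 3 lower in GM-TNFa-DC did not move. The replicate block on only the 4 arrays compared called 0 higher and 0 lower there.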
